A study of Mus musculus with 8 samples.

Results

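The transcripts described here are those of 34 genes that the tumour suppressor p53 activates or is tied to, among the 21154 genes of a read count table of mouse osteoblasts. The 34 genes were set by name, as known p53 targets together with Trp53 itself, and all 34 had a row in the table. They were chosen with earlier results of these data known. After a filter on low counts 15373 genes could be tested, and 33 of the 34 were among them. Perp was the one left out.

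p53 is a transcription factor that is held at a low level by the ubiquitin ligase Mdm2. Damage to DNA, such as that caused by the anthracycline doxorubicin, releases p53 from Mdm2, and p53 then raises the transcription of genes that stop the cell cycle, start apoptosis, repair DNA or shift metabolism. Mdm2 is itself a target, which closes a feedback loop. Since p53 raises their transcription, the levels of target transcripts are commonly read as a measure of p53 activity. Many of the same genes also have transcription in undamaged cells, and some of them (Btg2, Plk2, Plk3) are immediate early genes that respond to growth factors and cell handling.

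Osteoblasts came from female mice that carried the Col2.3-GFP transgene, a reporter that puts GFP under a piece of the Col1a1 promoter, and were sorted by GFP from enzyme-digested bone chips after the marrow had been flushed out. The sort therefore takes cells in which that piece is active. The 5 doxorubicin (DOX) libraries are from mice that had 4 intravenous injections of doxorubicin at 5 mg/kg, spaced by 1 week and begun at an age of 8 to 10 weeks. The 3 PBS libraries are from mice injected in the same way with phosphate-buffered saline. Bones were taken 8 weeks after treatment, so the question is whether p53 target transcripts still differed long after the drug was given. Each library carries a batch number of unstated meaning. DOX replicates 1 and 2 and PBS replicate 1 formed batch 1, and DOX replicates 3 to 5 with PBS replicates 2 and 3 formed batch 2.

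One library has labels that disagree. DOX replicate 1 is titled as DOX, but its treatment tag reads PBS, and it was counted here as DOX. Library totals were 39419027 to 44151882 counts in DOX and 40985302 to 44299591 counts in PBS. DOX replicate 1 and PBS replicate 1 had the lowest share of counts from Col1a1 and Col1a2, the type I collagen genes, at 23.2% and 19.1%, against 26.0% to 35.5% in the other DOX libraries and 38.7% to 39.5% in the other PBS libraries. All 12 osteoblast markers had counts in every library, with a summed level of 263687 to 486158 CPM (counts scaled to library sizes of 1e6 after TMM, a normalization on the bulk of genes) in DOX and 235049 to 611037 CPM in PBS. Red cell markers summed to 39.4 to 160 CPM in batch 1 and to 3.07 to 11.1 CPM in batch 2, with Slc4a1 and Epb42 at 0 in some libraries.

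The promoters of several members hold a match to a short p53 motif. RefSeq promoter windows of build GRCm38.p6, from 250 bases before to 50 bases after each start site, were found for 25 of the 34 genes and searched on both strands for the p53 half-site consensus, a motif of 10 bases that reads the same on either strand. It was present for 10 of these 25 genes (40%), against 2582 of 27025 genes (9.55%) in the whole promoter table. Windows of neighbouring starts can overlap, and sequence beyond the windows was not searched. Single half-sites were matched and pairs of them were not scored. The members had been set as known p53 targets, so the shares are a description. The 5 stretches that follow belong to members whose values are given in full in the results, and each is written 5′ to 3′ on the gene's strand with the half-site in capitals.
Mdm2: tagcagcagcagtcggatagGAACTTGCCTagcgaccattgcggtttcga
Ccng1: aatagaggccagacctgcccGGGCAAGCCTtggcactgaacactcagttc
Bax: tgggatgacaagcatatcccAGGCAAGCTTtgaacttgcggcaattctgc
Trp53: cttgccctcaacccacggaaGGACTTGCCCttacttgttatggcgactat
Sesn1: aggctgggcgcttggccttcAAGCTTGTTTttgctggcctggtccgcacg

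The Mdm2 half-site began 186 bases before its start site (stretch at chr10:117710915-117710964, minus strand), that of Ccng1 185 bases (chr11:40755442-40755491, minus strand) and that of Bax 201 bases (chr7:45467070-45467119, minus strand). In Trp53 it began 75 bases before the start (chr11:69580264-69580313, plus strand). In Sesn1 it lay 173 bases before 1 of its 2 starts (chr10:41887246-41887295, plus strand). Aen, Ei24, Gtse1, Ckap2 and Polk held a match as well. The windows of Bbc3, Apaf1, Pidd1, Phlda3, Fas, Eda2r, Gdf15, Btg2, Plk2, Plk3, Psrc1, Ercc5, Mgmt, Tigar and Dcxr held none of these letters. A match is a description of the sequence, and binding was not measured.

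No p53 target gene passed the test between DOX and PBS osteoblasts. EdgeR's quasi-likelihood test, with batch as a term and Benjamini-Hochberg adjustment over all genes tested, called 0 of the 33 members, and it called 0% of all genes tested at an adjusted p under 0.05. At an unadjusted p under 0.05 it listed 1 member, Sesn1, which is 3.03% of the 33, beside 3.71% of all genes. DESeq2 called 0 members and 15 genes in all (0.0976%), and at an unadjusted p under 0.05 it listed 2 members, Eda2r and Sesn1 (6.06%), beside 4.74% of all genes. Of these, Eda2r passed the filter on low counts only through its DOX libraries. Limma-voom called 0 members and 0% of all genes, and at an unadjusted p under 0.05 it listed 1 member, Sesn1 (3.03%), beside 10.2% of all genes. The fitted log2 fold change was above 0 for 16 of the 33 members (48.5%), against 53% of all genes. Among the 16, Eda2r, Tnfrsf10b, Gdf15 and Psrc1 would not have passed the filter on their PBS libraries alone. The median over members was -0.0026 on the log2 scale, beside 0.017 for all genes. In no member did every DOX library lie above every PBS library, an arrangement found in 1.24% of all genes, and in none did every DOX library lie below, found in 1.19%. In libraries of this kind, fewer cells that express a gene and less RNA of it per cell cannot be told apart.

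The fits also set limits on how large a difference could be, if it was the same in both batches. For 13 of the 33 members (39.4%, as for 39.4% of all genes) the 95% interval of the fold change excluded a 1.5-fold change either way. These were Trp53, Mdm2, Ccng1, Bax, Bbc3, Apaf1, Aen, Ei24, Trp53inp1, Phlda3, Ptp4a3, Xpc and Sesn1. Among them the batches were furthest apart for Apaf1 and Phlda3. The log2 difference in batch 1 and batch 2 was 0.52 and -0.34 for Apaf1, and -0.67 and 0.46 for Phlda3. The limit for both genes depends on the condition of an equal difference. A rise of 1.5-fold or more lay outside the interval for 18 members (54.5%, against 54.4% of all genes), and a rise of 2-fold or more for 26 members (78.8%, against 71% of all genes). The 7 members whose interval reached a 2-fold rise were Pmaip1, Tnfrsf10b, Eda2r, Gdf15, Plk3, Ckap2 and Psrc1. Of these, 6 had mean levels under 3 CPM in both groups, and Ckap2 averaged 3.32 CPM in DOX. A rise of that size lay within the interval for these 7, and what set their width was not tested.

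**Figure D1:**
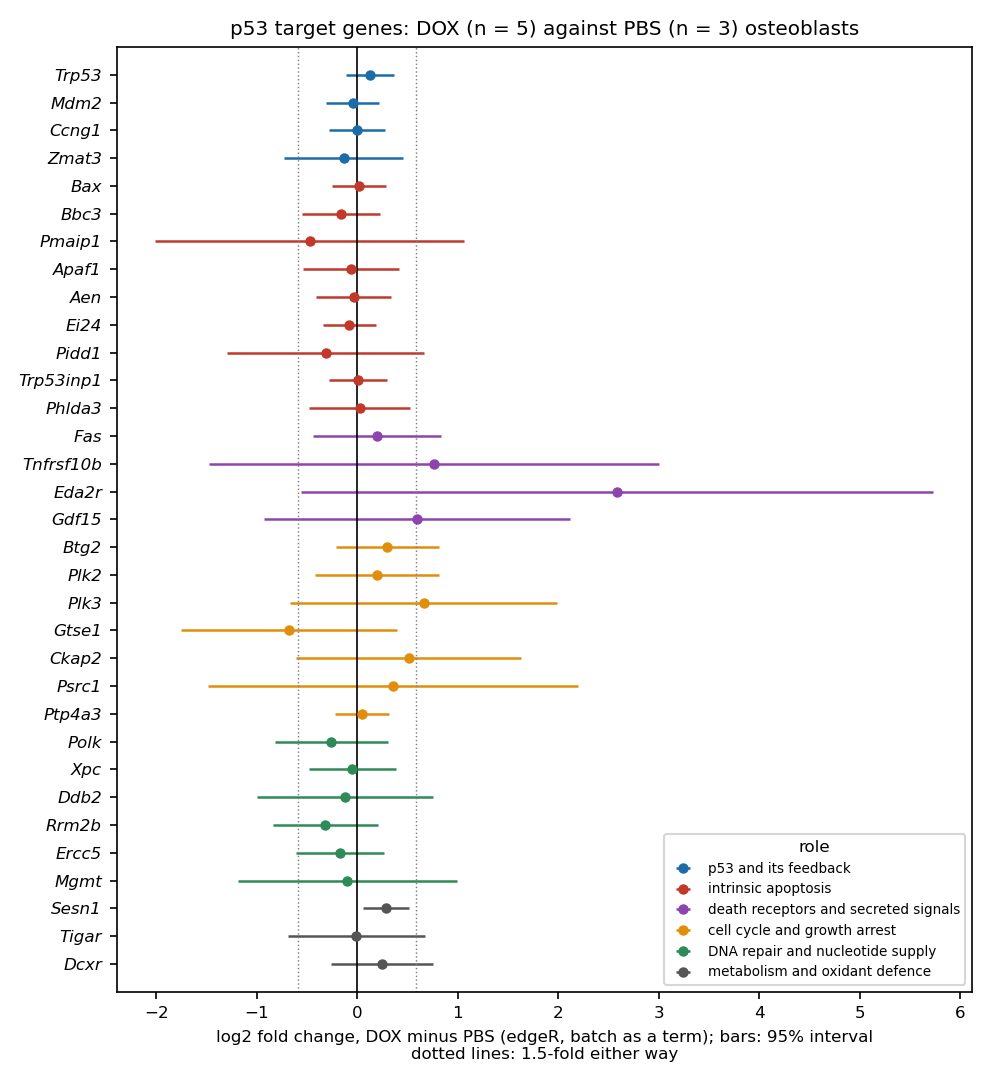
Fitted log2 fold change of DOX minus PBS (points) with 95% intervals (bars) for the 33 tested members, coloured by role, DOX n = 5 and PBS n = 3. The interval crosses 0 for every member but Sesn1, and the widest interval, from -0.56 to 5.73, is that of Eda2r.

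For p53 itself, Mdm2 and Ccng1 the groups overlapped and the intervals were narrow. Mdm2 had 36.4, 40.9, 36.5, 34.9 and 30.8 CPM in DOX replicates 1 to 5, against 37.6, 38.6 and 33.8 CPM in PBS replicates 1 to 3. The groups overlapped, with the highest and the lowest library both in DOX. Its log2 fold change was -0.04 ± 0.12 (SE), with a fold change interval of 0.809 to 1.16 (edgeR adjusted p = 0.995).

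Ccng1, which encodes cyclin G1, a partner of a phosphatase that acts on Mdm2, had 113, 93.2, 86.1, 103 and 85.7 CPM in DOX and 93.9, 99.8 and 93.3 CPM in PBS. The PBS libraries lay inside the DOX range, at 96.1 ± 11.6 CPM in DOX (SD, n = 5) and 95.7 ± 3.62 CPM in PBS (SD, n = 3). Its fold change interval ran from 0.823 to 1.21. Trp53, the gene of p53, had 35.6, 38.5, 43.1, 39.9 and 42.8 CPM in DOX and 36.0, 38.5 and 35.8 CPM in PBS. Its 3 highest libraries were the DOX libraries of batch 2 and its lowest was DOX replicate 1, with a log2 fold change of 0.13 ± 0.11 (SE). For Zmat3, an RNA-binding zinc finger protein, levels of 2.93 to 4.45 CPM in DOX and 2.58 to 5.18 CPM in PBS gave a log2 fold change of -0.13 ± 0.27 (SE).

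Cdkn1a, the best known p53 target and not among the 34 genes, encodes the cell cycle inhibitor p21. It had 276, 243, 346, 278 and 312 CPM in DOX, against 262, 276 and 317 CPM in PBS. Both the highest and the lowest value were in DOX, and the fold change interval ran from 0.848 to 1.25.

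**Figure D2:**
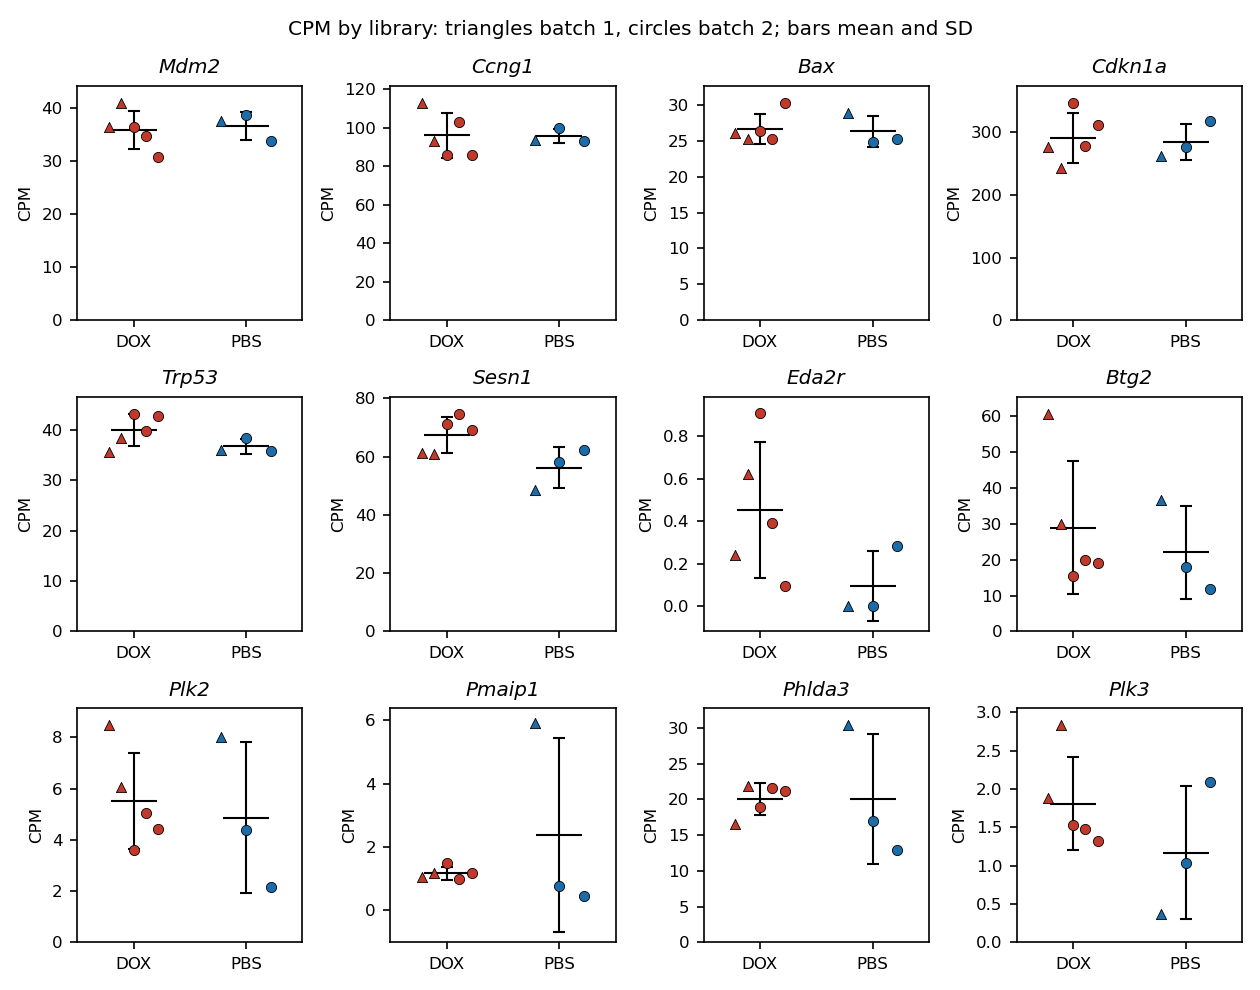
CPM of 11 members and of Cdkn1a in each library, DOX left of PBS, with triangles for batch 1, circles for batch 2, and a bar with whiskers for the mean and SD (DOX n = 5, PBS n = 3). Mdm2, Ccng1, Bax and Cdkn1a overlap between groups, Btg2 and Plk2 are higher in batch 1 than in batch 2, and Pmaip1 is highest in PBS replicate 1 at 5.92 CPM.

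Genes of intrinsic apoptosis showed no shared direction. Of the 9 tested, 3 had a fitted log2 fold change above 0 (33.3%, beside 53% of all genes) and 6 below, with a median of -0.06. Bax, whose protein forms pores in the mitochondrial outer membrane, had 26.1, 25.2, 26.4, 25.2 and 30.2 CPM in DOX and 28.8, 24.8 and 25.2 CPM in PBS. DOX replicate 5 was the highest library and the others lay close together, with a fold change interval of 0.839 to 1.22.

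Bbc3 and Pmaip1 encode the BH3-only proteins PUMA and NOXA, which set off Bax and its relatives. Bbc3 had a log2 fold change of -0.16 ± 0.18 (SE), at 5.51 to 7.23 CPM in DOX and 6.68 to 7.85 CPM in PBS. Pmaip1 had 1.05, 1.17, 1.5, 0.970 and 1.16 CPM in DOX and 5.92, 0.764 and 0.453 CPM in PBS. PBS replicate 1 lay far above every other library, while the other PBS libraries lay below all of DOX. The log2 fold change of Pmaip1 was -0.47 ± 0.69 (SE) over all libraries and 0.99 without PBS replicate 1.

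The other genes of this group had small differences or wide errors. Phlda3, whose protein holds back the kinase Akt, had 16.6, 21.8, 18.9, 21.6 and 21.2 CPM in DOX and 30.4, 17.0 and 13.0 CPM in PBS. As for Pmaip1, PBS replicate 1 was the highest library and PBS replicate 3 the lowest. Its log2 fold change was 0.03 ± 0.23 (SE), against 0.46 without PBS replicate 1 and -0.21 without PBS replicate 3. Without PBS replicate 1 and in batch 2 alone, the edgeR unadjusted p of Phlda3 was under 0.05. In batch 2 alone its edgeR adjusted p was 0.327. Aen, a nuclease of apoptotic cells, had 10.8, 14.0, 10.3, 8.87 and 8.81 CPM in DOX and 12.4, 11.2 and 8.24 CPM in PBS, with the groups overlapping and a log2 fold change of -0.04 ± 0.17 (SE).

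The log2 fold change was -0.06 ± 0.21 (SE) for Apaf1, the core of the apoptosome, and -0.08 ± 0.12 for Ei24, a protein of the endoplasmic reticulum. It was 0.01 ± 0.13 for Trp53inp1, a stress protein with a role in autophagy, and -0.32 ± 0.44 for Pidd1, a scaffold for caspase-2. Perp, a membrane protein of epithelial cell contacts, had 0, 3, 0, 3 and 0 counts in the DOX libraries and 0, 0 and 21 counts in the PBS libraries. A count of 0 allows up to 3 counts, or 0.0563 CPM in PBS replicate 1 and 0.0818 CPM in PBS replicate 2, and these limits cover counting error only.

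All 4 genes of death receptors and secreted signals had a fitted log2 fold change above 0, beside 53% of all genes. Their median was 0.68, and none passed the test. Tnfrsf10b, Eda2r and Gdf15 would not have passed the filter on low counts on their PBS libraries alone. Their place in this share and median therefore depends on their DOX levels. Within batch 1 the difference was below 0 for Fas, Tnfrsf10b and Gdf15, at -0.52, -0.51 and -0.28. Within batch 2 it was above 0 for these genes, at 0.62, 1.31 and 1.22. Eda2r, a receptor for a form of ectodysplasin, had 12, 25, 37, 17 and 4 counts in DOX replicates 1 to 5, which is 0.243, 0.620, 0.911, 0.393 and 0.0966 CPM. In PBS it had 0, 0 and 10 counts, which is 0, 0 and 0.283 CPM. The gene passed the filter on low counts only through its DOX libraries, so its place among the tested members depends on its DOX level. DOX replicates 2, 3 and 4 lay above every PBS library, and DOX replicates 1 and 5 lay below PBS replicate 3. The log2 fold change was 2.58 ± 1.41 (SE, edgeR adjusted p = 0.995). It was 7.29 without PBS replicate 3, where the remaining PBS libraries had no count and the value depends on the prior count of the fit. It was 1.71 without PBS replicate 1.

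Fas, the death receptor CD95, had a log2 fold change of 0.19 ± 0.29 (SE), at 6.30 to 11.3 CPM in DOX and 13.5, 4.45 and 6.23 CPM in PBS. Without PBS replicate 1, where it was highest, the value was 0.66, and without PBS replicate 2 it was -0.06. Tnfrsf10b, the mouse death receptor for TRAIL, had 0.0462 to 0.724 CPM in DOX and 0.0273 to 0.770 CPM in PBS, with a log2 fold change of 0.76 ± 1.01 (SE). Its counts were as low as 2 in DOX replicate 4 and 1 in PBS replicate 2. Gdf15, a secreted stress signal, had 0.362 to 0.707 CPM in DOX and 0.0850 to 0.714 CPM in PBS, with a log2 fold change of 0.60 ± 0.68 (SE). It had 3 counts in PBS replicate 3. The batch 2 differences of Tnfrsf10b and Gdf15 thus rest in part on libraries with very few counts. In Fas, Tnfrsf10b and Gdf15 PBS replicate 1 was the highest library.

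Of the 7 genes of cell cycle and growth arrest, 6 had a fitted log2 fold change above 0 (85.7%, beside 53% of all genes) and 1 below. Their median was 0.30, and none passed the test. The 6 include Btg2, Plk2 and Plk3, named above as immediate early genes. They also include Psrc1, which would not have passed the filter on low counts on its PBS libraries alone. Btg2, an antiproliferative protein that speeds removal of mRNA tails, had 60.6, 29.9, 15.4, 19.9 and 19.1 CPM in DOX and 36.5, 17.9 and 11.8 CPM in PBS. The 3 libraries of batch 1 were the 3 highest. Within batch 1 the difference in mean log2 CPM was 0.22, and within batch 2 it was 0.31, and the fitted log2 fold change was 0.30 ± 0.23 (SE). With DOX replicate 1 counted as PBS it was -0.05.

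Plk2, a polo-like kinase, had 8.47, 6.08, 3.59, 5.03 and 4.42 CPM in DOX and 8.02, 4.39 and 2.18 CPM in PBS, again with the batch 1 libraries highest. Its log2 fold change was 0.20 ± 0.28 (SE), and it was -0.08 without PBS replicate 3. Plk3, a related kinase, had 1.88, 2.83, 1.53, 1.48 and 1.33 CPM in DOX and 0.376, 1.04 and 2.10 CPM in PBS. PBS replicate 1 was its lowest library, and the log2 fold change of 0.66 ± 0.60 (SE) was -0.11 without that library.

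Gtse1, a microtubule-bound protein of dividing cells that restrains p53, was the member of this group with a value below 0. It had 1.98, 0.521, 0.812, 1.11 and 1.42 CPM in DOX and 2.31, 1.17 and 2.12 CPM in PBS, with 3 of 5 DOX libraries below every PBS library. Its log2 fold change was -0.68 ± 0.48 (SE). The spindle genes Ckap2 and Psrc1 varied widely, with log2 fold changes of 0.51 ± 0.50 and 0.35 ± 0.83 (SE). Both were highest in DOX replicate 3 or PBS replicate 2, at 5.79 and 4.88 CPM for Ckap2 and 1.06 and 1.09 CPM for Psrc1, and lowest in PBS replicate 3, at 1.13 and 0.142 CPM. The 14 markers of dividing cells summed to 81.0 to 96.7 CPM in DOX and to 98.1, 98.6 and 63.5 CPM in PBS, with none at 0 in any library, and their part in these values was not tested. For the phosphatase Ptp4a3 the log2 fold change was 0.05 ± 0.12 (SE).

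All 6 genes of DNA repair and nucleotide supply had a fitted log2 fold change below 0, where 53% of all genes were above 0. Their median was -0.15, and none passed the test. The batches did not share this direction. Ddb2 and Mgmt were above 0 within batch 2, at 0.24 and 0.50, and Ercc5 within batch 1, at 0.21. Polk, Xpc and Rrm2b were below 0 within both. Rrm2b, the p53-induced subunit of ribonucleotide reductase, which supplies deoxynucleotides, had 4.41, 8.01, 7.46, 6.07 and 6.18 CPM in DOX and 7.10, 10.1 and 7.05 CPM in PBS. PBS replicate 2 was the highest library, and 3 of 5 DOX libraries lay below every PBS library. Its log2 fold change was -0.32 ± 0.23 (SE).

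The DNA polymerase Polk, which copies past damaged bases, had a log2 fold change of -0.26 ± 0.25 (SE), at 4.76 to 10.3 CPM in DOX and 6.68 to 11.3 CPM in PBS. The value was -0.05 ± 0.19 for Xpc and -0.12 ± 0.39 for Ddb2, which find damage for nucleotide excision repair, and -0.18 ± 0.20 for Ercc5, which cuts the damaged strand. It was -0.10 ± 0.49 for Mgmt, which removes alkyl groups from guanine. Mgmt was highest in PBS replicate 1 at 2.16 CPM, against 0.886 to 1.38 CPM in DOX and 0.545 and 0.963 CPM in the other PBS libraries.

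Sesn1 had the smallest p of the 34 genes. It encodes sestrin 1, which holds back the growth kinase mTORC1 and acts in oxidant defence. Sesn1 had 61.1, 60.8, 71.2, 74.5 and 69.1 CPM in DOX, against 48.4, 58.1 and 62.1 CPM in PBS. Over all libraries the groups overlapped, since DOX replicates 1 and 2 lay below PBS replicate 3. Within each batch every DOX library lay above every PBS library, which held for 1 of 33 members (3.03%) and for 3.36% of all genes, while the opposite arrangement held for 0 members and for 2.89% of all genes.

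The log2 fold change of Sesn1 was 0.28 ± 0.10 (SE), with a fold change of 1.22 and an interval of 1.04 to 1.42 (edgeR unadjusted p = 0.021, adjusted p = 0.995). It was 0.33 within batch 1 and 0.25 within batch 2. Leaving out 1 library at a time gave 0.26 to 0.31, and counting DOX replicate 1 as PBS gave 0.21. The unadjusted p was above 0.05 in that last setting, without the batch term, and without PBS replicate 1 or PBS replicate 2. The adjusted p was between 0.386 and 1.00 over all alternatives tried. Of the other metabolic members, Dcxr, a carbonyl and sugar reductase, had 4.26, 4.86, 4.26, 3.70 and 4.13 CPM in DOX and 3.87, 4.01 and 2.75 CPM in PBS. In Dcxr 4 of 5 DOX libraries exceeded the highest PBS library, with a log2 fold change of 0.25 ± 0.23 (SE). For Tigar, a phosphatase that slows glycolysis, the log2 value was -0.01 ± 0.31 (SE).

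The libraries were also compared by batch. For batch 2 against batch 1, edgeR called 0 of 33 members at an adjusted p under 0.05, beside 0.0911% of all genes, and it listed 4 members (12.1%) at an unadjusted p under 0.05, beside 14.6% of all genes. These were Btg2, Plk2, Sesn1 and Aen. Btg2 was lower in batch 2 by a log2 value of -1.31 ± 0.22 (SE, adjusted p = 0.0819) and Plk2 by -0.94 ± 0.27 (adjusted p = 0.216). Every batch 2 library lay below every batch 1 library for these 2 members (6.06%), beside 4.38% of all genes, and above for 0 members, beside 4.89%. DESeq2 called Btg2 between the batches as 1 of 506 genes (3.29% of all genes), and edgeR without DOX replicate 2 called it as 1 of 938 genes (6.18%). Aen was lower in batch 2 by -0.39 ± 0.17 and Sesn1 higher by 0.26 ± 0.10.

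A further 23 immediate early genes, among them Fos, Jun and Egr1, summed to 5820, 5192 and 3773 CPM in the batch 1 libraries (DOX replicates 1 and 2 and PBS replicate 1) and to 2922 to 4168 CPM in batch 2. Fosl1 was at 0 in some libraries. By group, the sums were 3146 to 5820 CPM in DOX and 2922 to 3773 CPM in PBS. Of the 22 tested, 18 had a fitted log2 fold change above 0 for DOX against PBS (81.8%, beside 53% of all genes). The median was 0.29 and 0 passed the test. By edgeR 3 of them (13.6%) had an unadjusted p under 0.05, beside 3.71% of all genes. The part of such genes in the Btg2 and Plk2 values was not tested.

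PBS replicate 1 stood apart in several members. It was the highest of the 8 libraries for 11 of the 33 members (33.3%), against 18.4% of all genes, and these were Pmaip1, Phlda3, Fas, Tnfrsf10b, Gdf15, Zmat3, Bbc3, Gtse1, Polk, Ddb2 and Mgmt. PBS replicate 3 was the lowest library for 11 members (33.3%), against 15% of all genes. Markers of reticular and adipogenic stroma summed to 970 CPM in PBS replicate 1, against 215 to 611 CPM in DOX and 298 and 170 CPM in the other PBS libraries, with 1 of the 10 markers, Ebf3, at 0 in some library. Cxcl12 alone gave 606 CPM of the sum in PBS replicate 1. Ebf3, Pparg and Cebpa were higher in DOX replicate 2 than in PBS replicate 1, and the other stroma markers were highest in PBS replicate 1. Stroma was not the only cell type with markers highest there. The red cell sum was highest in PBS replicate 1 as well, at 160 CPM. So were the osteoblast marker Spp1, the chondrocyte markers Acan, Comp and Matn3, and the tendon markers Thbs4 and Fmod. Of the same lists, Col1a1, Col9a1 and Dcn were lowest in that library. The part of these markers in the values of PBS replicate 1 was not tested.

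**Figure D3:**
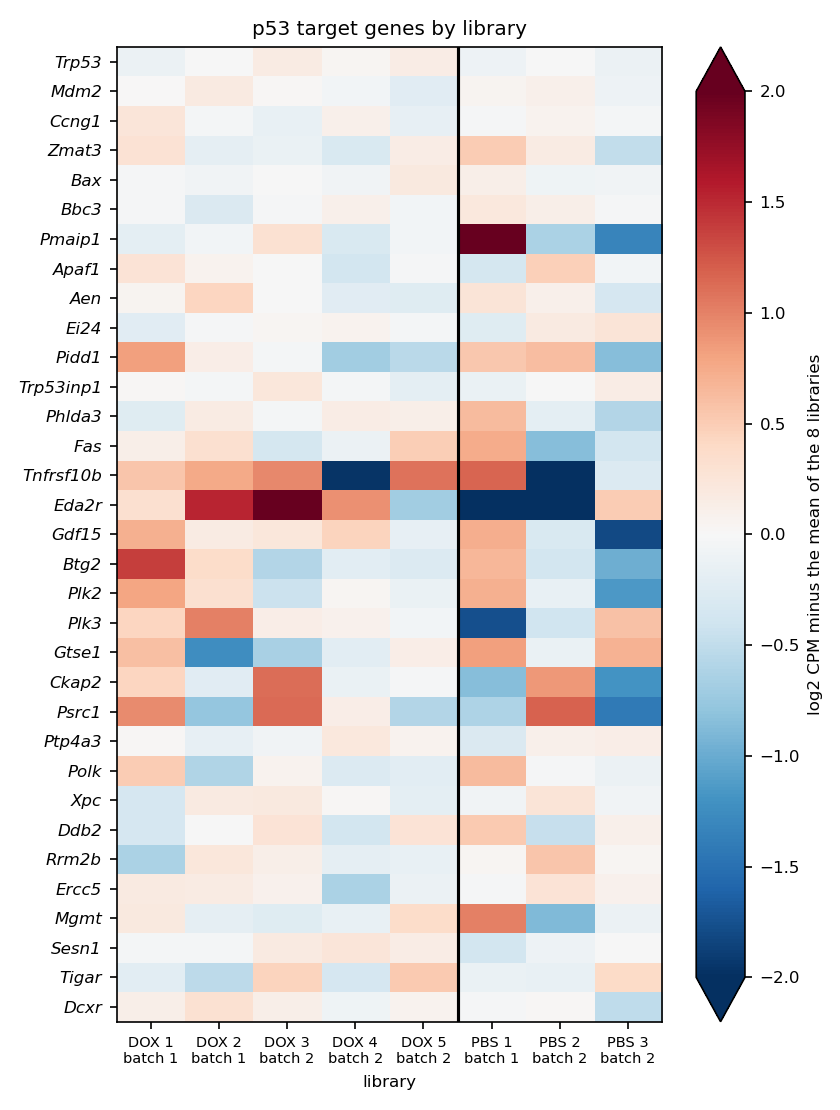
log2 CPM of the 33 tested members in each library after subtraction of the member's mean over the 8 libraries, DOX left of PBS, with the batch under each library. Red is above the mean and blue below, and the colour scale ends at 2 either way. PBS replicate 1 is darkest red for Pmaip1, and no column of DOX is red or blue throughout.

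The difference between DOX and PBS was also compared between batches. The difference in mean log2 CPM was above 0 within both batches for 7 of the 33 members (21.2%, against 22.4% of all genes) and below 0 within both for 7 (21.2%, against 20.7%). It had opposite signs for 19 members (57.6%, against 56.8% of all genes). The test of the interaction of batch and treatment called 0 members at an adjusted p under 0.05, beside 0% of all genes, and listed 5 members (15.2%) at an unadjusted p under 0.05, beside 11.7% of all genes. These were Pmaip1, Phlda3, Plk3, Apaf1 and Fas. For Pmaip1 the difference was -2.37 in batch 1 and 0.96 in batch 2 on the log2 scale, and the interaction was 3.40 ± 0.75 (SE, edgeR adjusted p = 0.211). DESeq2 called this interaction for Pmaip1, as 1 of 291 genes (1.89% of all genes). For Phlda3 the differences were -0.67 and 0.46, and for Plk3 they were 2.48 and -0.03. Batch 1 has 1 PBS library, so these values rest on PBS replicate 1 and could not be tested without it.

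**Figure D4:**
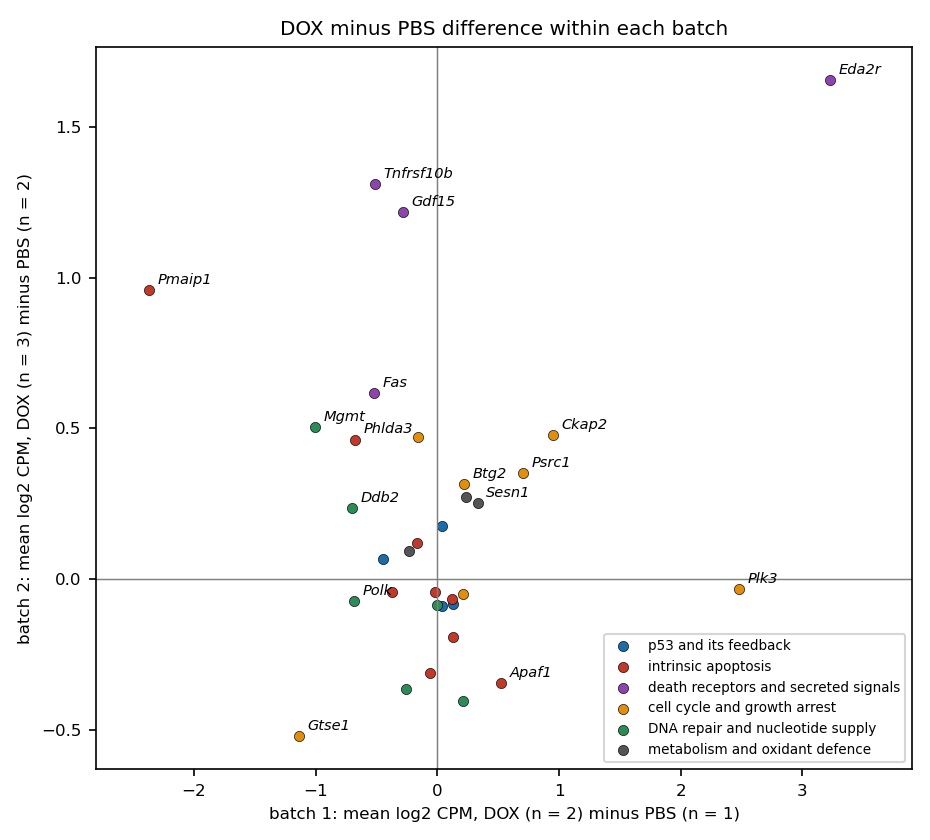
Difference in mean log2 CPM (prior count 2) of DOX minus PBS within batch 1 (horizontal, DOX n = 2, PBS n = 1) and within batch 2 (vertical, DOX n = 3, PBS n = 2) for the 33 tested members, coloured by role. Pmaip1 lies at -2.37 and 0.96, Sesn1 at 0.33 and 0.25, and 19 members lie in the quadrants of opposite sign.

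No other gene of the pathway lists passed the test. Of 22 tested kinases and regulators upstream of p53, among them Atm, Chek2, Mdm4 and Ppm1d, 10 had a fitted log2 fold change above 0 and 12 below, with a median of -0.03, and 0 passed in either direction. None had an unadjusted p under 0.05. Of 43 other targets, Cdkn1a among them, 30 were above 0 (69.8%, beside 53% of all genes) and 13 below, with a median of 0.09, and 0 passed in either direction. In this list 3 genes above 0 and 1 below had an unadjusted p under 0.05 by edgeR, which is 9.3% of the list, beside 3.71% of all genes. The list was put together with earlier results of these data known, so these shares are a description.

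Ccng2, which encodes cyclin G2, had 41.6, 25.6, 32.1, 28.3 and 26.0 CPM in DOX and 23.5, 20.6 and 25.0 CPM in PBS. The lowest DOX library was above the highest PBS library, an arrangement found in 1.24% of all genes. The log2 fold change of Ccng2 was 0.40 ± 0.17 (SE, edgeR adjusted p = 0.995). Its highest library was DOX replicate 1, whose treatment tag reads PBS, and with that library counted as PBS the groups overlap. The value was 0.40 ± 0.15 for Tap1, a peptide transporter for antigen presentation, and 0.40 ± 0.18 for Gadd45g, a stress protein that activates p38 kinases. It was -0.42 ± 0.18 for Steap3, an iron reductase, whose DOX libraries had 3.97 to 6.25 CPM, against 6.01 to 7.83 CPM in PBS.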

How the data were processed

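Messenger RNA of sorted osteoblasts was measured in 5 DOX and 3 PBS libraries, which the titles call biological replicates. The authors deposited raw read counts per gene symbol. Per the submitters' processing notes, featureCounts 2.0.1, STAR 2.7.9a and Trim Galore 0.6.6 were among the tools and GRCm39 was the build; annotation, strand setting and treatment of multiply mapped reads: not given in the sources used here. Per the labels' protocols, cDNA was made with a SMART-Seq kit, which does not mark strand, so reads of overlapping genes cannot be told apart. The smallest gene total in the table was 10 counts. No molecular identifiers are named, so limits cover counting error only.

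EdgeR 4.0.16 under R 4.3.3 was run on the counts (TMM, filterByExpr, quasi-likelihood test, batch and group as terms, two-sided, Benjamini-Hochberg over all genes, threshold 0.05). The interaction of batch and group and the batch term were tested likewise. DESeq2 1.42.0 and limma 3.58.1 (voom with quality weights) were alternatives, beside other size factors, no filter, a stricter filter, no batch term, a replicate block, batch 2 alone, DOX replicate 1 counted as PBS and each library left out, and the fit was tested on simulated data. SEs come from the fold change and F statistic, and log2 CPM carries a prior count of 2. The members and lists were chosen with earlier results of these data known, so no p-value was adjusted over them alone. Values in every library are given for the 8 members of smallest p, the 4 of smallest batch p, the 3 of smallest interaction p, and Mdm2, Ccng1, Bax, Trp53 and Cdkn1a. Promoter sequences are RefSeq's for GRCm38.p6, which is not the build of the counts, and were matched by symbol. Zmat3, Pmaip1, Perp, Trp53inp1, Tnfrsf10b, Ptp4a3, Xpc, Ddb2 and Rrm2b had no entry. Figures used matplotlib 3.10.9 (Python 3.11.15).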

Additional observations from a re-analysis of the deposited data

Results flagged for a closer look

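In Bax, DOX replicate 5 stood apart from the other DOX libraries, at 30.2 CPM against 26.4 CPM in the nearest. It was the 1 member of 33 with such a library among the 5 of DOX by Dixon's criterion, and chance sets apart a library in about 1 of 20 such groups.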

How the results depend on the processing

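No setting tried called a member between DOX and PBS, and the count of members above 0 stayed between 13 and 20 of 33 (14 of 28 with a stricter filter). DESeq2 called 15 genes between DOX and PBS, 506 genes and 1 member (Btg2) between batches, and 291 genes and 1 member (Pmaip1) for the interaction. With DOX replicate 1 counted as PBS, 5 genes were called between batches. Leaving out 1 library gave 0 (PBS replicate 1) to 938 genes (DOX replicate 2) and 0 to 1 members (Btg2, without DOX replicate 2) between batches, and 0 to 58 genes (DOX replicate 2) for the interaction; without PBS replicate 1 the interaction could not be fitted. The replicate numbers were not taken to pair the samples: no label ties them, and DOX replicate 2 is in batch 1 while PBS replicate 2 is in batch 2. Deviations from the group means correlated by 0.25, -0.05 and 0.24 for numbers 1, 2 and 3. PBS replicates 1 and 3 correlated best with the DOX replicates of the same number, and PBS replicate 2 with DOX replicate 3. With the number as a replicate block 20 of 33 members were above 0, with a median of 0.05, and no member was called; Sesn1 was 0.20, with an unadjusted p above 0.05.

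The sign of the fold change held under every setting for 12 of 33 members: Trp53, Bbc3, Ei24, Tnfrsf10b, Eda2r, Gdf15, Gtse1, Ckap2, Polk, Rrm2b, Sesn1 and Dcxr. The others, none called, changed sign in at least 1 setting, and the cause was not tested. On the log2 scale, the values with the sign turned were, with DOX replicate 1 counted as PBS, 0.14 for Pmaip1, 0.061 for Aen, -0.035 for Trp53inp1, -0.055 for Btg2, -0.42 for Psrc1, -0.044 for Ptp4a3, 0.081 for Xpc, 0.095 for Ddb2 and 0.026 for Mgmt. In batch 2 alone they were 0.048 for Zmat3, 0.99 for Pmaip1, -0.050 for Trp53inp1, -0.11 for Plk3, -0.038 for Ptp4a3, 0.25 for Ddb2, 0.51 for Mgmt and 0.12 for Tigar. With limma-voom they were -0.040 for Trp53inp1, -0.0059 for Ptp4a3, 0.15 for Ddb2, 0.30 for Mgmt and 0.15 for Tigar. With the replicate block they were 0.049 for Mdm2, 0.016 for Ccng1, -0.017 for Bax, 0.089 for Apaf1, 0.15 for Aen, 0.21 for Pidd1, -0.055 for Ptp4a3 and 0.037 for Ercc5. Without a batch term they were 0.0069 for Ccng1 and -0.011 for Phlda3, and with a stricter filter 0.0092 for Ccng1 and 0.0011 for Tigar.

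Leaving out 1 library gave ranges of -0.084 to 0.022 for Mdm2, -0.067 to 0.045 for Ccng1, -0.34 to 0.052 for Zmat3, -0.045 to 0.13 for Bax, -1.15 to 0.99 for Pmaip1, -0.35 to 0.20 for Apaf1, -0.14 to 0.088 for Aen, -0.60 to 0.22 for Pidd1, -0.061 to 0.068 for Trp53inp1 and -0.21 to 0.46 for Phlda3. They were -0.060 to 0.66 for Fas, -0.079 to 0.41 for Plk2, -0.11 to 1.33 for Plk3, -0.069 to 1.55 for Psrc1, -0.033 to 0.10 for Ptp4a3, -0.14 to 0.049 for Xpc, -0.36 to 0.26 for Ddb2, -0.46 to 0.51 for Mgmt and -0.18 to 0.13 for Tigar.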
